A study of Mus musculus with 8 samples.

Results

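Transcripts of 6 subunits of the phagocyte NADPH oxidase, Cybb, Cyba, Ncf1, Ncf4, Rac1 and Rac2, were followed in whole bone marrow (BM) of mice with low or absent Gfi1. The members were taken by name from a list of subunits and matched to the Ensembl identifiers of the count files, so that 6 of 41214 counted genes are described. RNA-seq covered 8 mice of strain C57Bl6 in 4 groups of 2. Gfi1 KD mice carry a human GFI1 cDNA in the Gfi1 locus, whose level is lowered by a floxed neo cassette in antisense, and Gfi1 KO mice lack Gfi1. Young KD mice were 39 and 42 days old and young KO mice 48 and 44 days, both recorded without AML. Sick KD mice were 187 and 78 days old and are recorded with AML, although the study describes the disease of KD mice as a myeloproliferative neoplasm. Old KO mice were 158 and 101 days old without AML. Every mouse carried one of these alleles, so no wild-type level enters, and in sick KD mice age and disease cannot be told apart. Only KD mice were sick, so genotype and disease cannot be told apart between old KO and sick KD mice, nor in any contrast that uses both. Labels of all 8 samples name total BM, with no sort, and nothing states whether mice shared a litter or a batch.

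All 6 subunits were abundant in every library, and none passed the test (an adjusted p under 0.05 in edgeR) in any of 5 comparisons of the 4 groups. From 0.0404% to 20.9% of all genes tested passed in these comparisons, and with 6 genes a count of 0 does not set the subunits apart. The highest library exceeded the lowest by between 1.24-fold for Rac1 and 1.42-fold for Ncf1. In sick KD marrow many other genes passed the same test, among them receptors that set off the oxidase and the transcription factor Irf1. Subunit ratios, described with no test, varied as well, and among them Ncf4 relative to Ncf1 was higher in both sick KD mice than in the other 6. Separation was common for single genes, of which 66.7% did not overlap between sick KD and young KD and 66.0% between old KO and sick KD. No such share was taken for ratios.

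The phagocyte NADPH oxidase passes electrons from NADPH across a membrane to oxygen and so makes superoxide, the start of the respiratory burst with which neutrophils, monocytes and macrophages kill microbes. Its catalytic core, gp91phox (Cybb), sits in the membrane with p22phox (Cyba), and the 2 proteins stabilise each other. In resting cells the soluble subunits, among them p47phox (Ncf1) and p40phox (Ncf4), stay in the cytosol with a Rac GTPase apart from them. On stimulation p47phox is phosphorylated and docks on p22phox, p40phox binds phosphoinositide lipids of the phagosome, and Rac loaded with GTP completes the active enzyme. Inherited loss of a phox subunit causes chronic granulomatous disease. The study asked about reactive oxygen species in Gfi1 KO and KD cells, and the mRNAs of an enzyme that makes them bear on the same theme without measuring its activity.

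RefSeq promoters, 250 bases before to 50 bases after a transcript start on GRCm38.p6, were at hand for 3 members, Cybb, Cyba and Ncf1. They are shown because factors known to drive oxidase genes in phagocytes, PU.1 (Spi1) and members of the IRF family, are among the regulators measured below, and Irf1 differed between groups. Ncf4, Rac1 and Rac2 were without an entry. All 3 windows lie on the minus strand, at chrX:9469275-9469574, chr8:122432891-122433190 and chr5:134229576-134229875, and are printed 5′ to 3′ along the gene with motif matches in capitals.
Cybb: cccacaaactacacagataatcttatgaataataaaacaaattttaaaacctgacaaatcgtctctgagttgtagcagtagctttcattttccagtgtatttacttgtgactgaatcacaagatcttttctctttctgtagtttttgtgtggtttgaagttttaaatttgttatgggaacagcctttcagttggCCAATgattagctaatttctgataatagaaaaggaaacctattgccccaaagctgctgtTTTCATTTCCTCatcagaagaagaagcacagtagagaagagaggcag
Cyba: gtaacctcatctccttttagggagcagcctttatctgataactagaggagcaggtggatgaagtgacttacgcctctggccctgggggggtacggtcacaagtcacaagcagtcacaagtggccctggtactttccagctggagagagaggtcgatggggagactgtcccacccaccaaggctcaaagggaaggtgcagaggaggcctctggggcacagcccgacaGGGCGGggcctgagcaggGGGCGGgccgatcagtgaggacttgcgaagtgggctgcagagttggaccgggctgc
Ncf1: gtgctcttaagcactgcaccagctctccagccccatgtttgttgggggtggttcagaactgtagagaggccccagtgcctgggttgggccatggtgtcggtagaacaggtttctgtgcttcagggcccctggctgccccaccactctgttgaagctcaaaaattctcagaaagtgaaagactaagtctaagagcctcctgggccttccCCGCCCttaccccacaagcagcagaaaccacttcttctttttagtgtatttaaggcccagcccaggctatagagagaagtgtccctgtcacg
Both strands were searched for a PU.1 core (GAGGAA), an ETS-IRF composite (GGAA and GAAA with any 2 bases between), a CCAAT box (CCAAT) and a GC box (GGGCGG), motifs that were chosen with the sequences in view. In Cybb the PU.1 core matched on the other strand at bases 10 to 15 after the start and the composite at bases 4 to 13, overlapping it, and CCAAT matched at bases -56 to -52. Cyba held 2 GC boxes, at bases -24 to -19 and -6 to -1, and Ncf1 held 1 on the other strand at bases -42 to -37. Of 32817 promoters of this length, 28.27% held GAGGAA, 2.72% the composite, 37.39% CCAAT and 35.63% GGGCGG. The Cybb window lies within the gene span of GENCODE M21 (chrX:9435252-9487771, minus strand), so its bases are counted from a start inside that span. These matches are descriptions of letters and do not show that a factor bound.

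Rac1 and Rac2 are close paralogs, so their coding sequences were compared for how far reads could be shared. Of 579 coding bases in the transcripts Rac1-201 and Rac2-201, 446 were identical, or 77.0%. The longest stretch shared by any of their transcripts was 29 bases.

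Libraries held 26642067 to 42679114 counts on genes. Reads that HTSeq tallied as on no feature were 42.0% and 38.8% in sick KD mice and 26.9% to 33.8% in the other 6. The share is of gene counts, no-feature reads and ambiguous reads together. All 8 mice had Xist between 622 and 1808 CPM and Y-linked genes at no more than 0.274 CPM, as in females. Counts over the mouse Gfi1 gene, scaled by TMM (a factor per library under which most genes do not differ) and given as CPM, were 6.17 and 7.03 in young KD, 14.0 and 14.4 in young KO, 5.49 and 7.15 in sick KD, and 13.3 and 29.7 in old KO. Gfi1 counts were thus higher in KO than in KD mice, and they check neither label, because the KD allele encodes the human protein and the part deleted in KO is not given in the sources used here. The KO-to-KD log2 fold change of Gfi1 was 1.77 ± 0.38 (SE) in old and sick mice (edgeR adjusted p = 0.0234), a call that was lost without sick KD mouse 1, and 1.10 ± 0.13 in young mice (edgeR adjusted p = 0.324). The young difference passed in DESeq2 (adjusted p = 1.82e-05) and in edgeR with every gene of at least 1 count (adjusted p = 1.33e-05). Values below are TMM-scaled CPM unless a length correction is named, and in bulk marrow fewer cells of a type and less RNA per cell cannot be told apart.

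**Figure D1:**
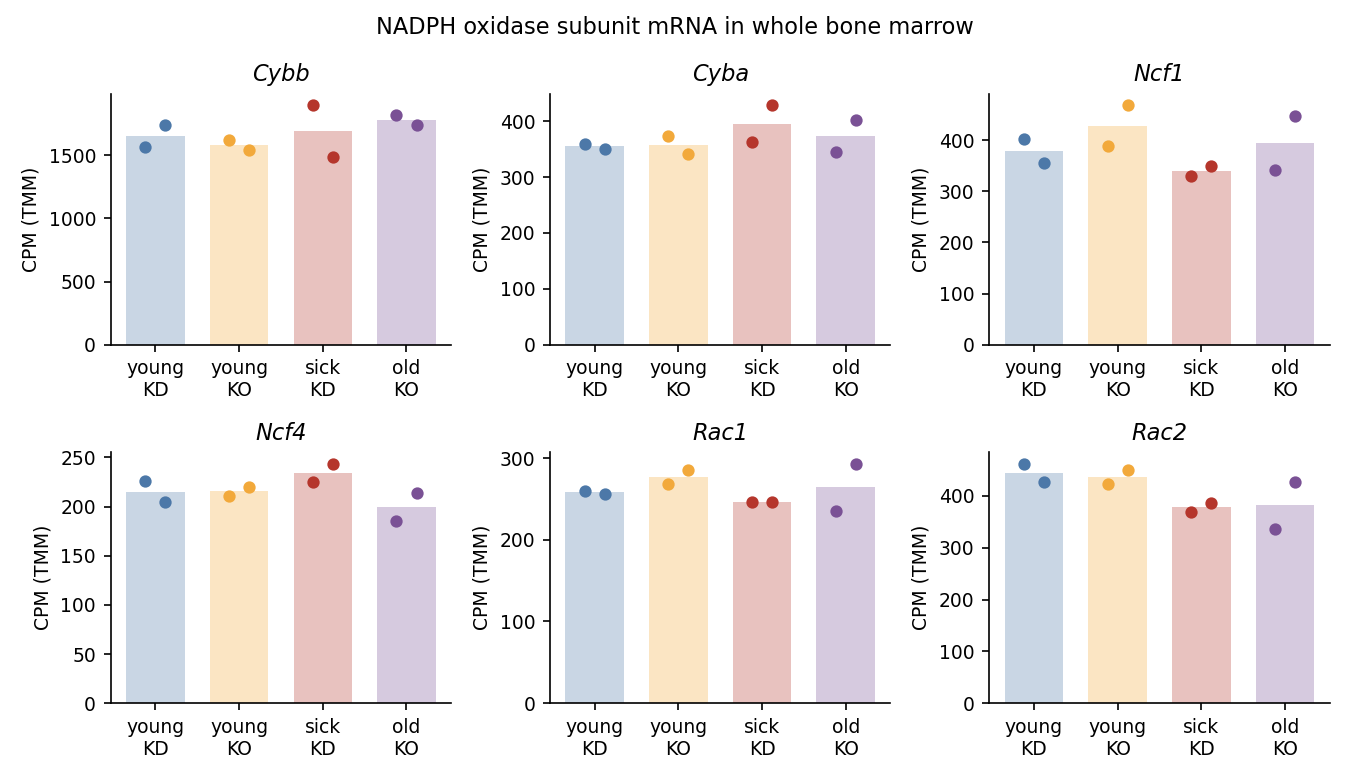
Level of each of the 6 oxidase subunits (y axis, TMM-scaled CPM, starting at 0) in marrow of young and sick KD and of young and old KO mice, where points are the 2 mice of a group and bars their mean. Group means of a subunit differ by 1.11-fold to 1.26-fold at most.

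Cybb (ENSMUSG00000015340, GRCm38 chrX:9435252-9487771, minus strand) encodes the catalytic core and was the subunit with the most reads. It was at 1566 and 1739 CPM in young KD, 1620 and 1542 in young KO, 1896 and 1487 in sick KD, and 1822 and 1743 in old KO. The 2 sick KD mice held both the highest and the lowest value of the 8, so that sick KD overlapped with every group. Means ran from 1783 ± 55.4 (SD, n = 2) in old KO over 1691 ± 289 in sick KD and 1652 ± 123 in young KD to 1581 ± 55.3 in young KO, and neighbours in this order overlapped. Both old KO mice were above both young KO mice, with a log2 fold change of 0.17 ± 0.11 (SE, edgeR adjusted p = 0.769). Old KO differed from sick KD by a log2 fold change of 0.079 (95% interval -0.32 to 0.48, edgeR adjusted p = 0.775). Cybb is X-linked, and Xist was higher in sick KD than in young KD mice by 0.95 ± 0.18 on the log2 scale (edgeR adjusted p = 0.0192), while Cybb changed by 0.027 ± 0.15 in that comparison.

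Cyba (ENSMUSG00000006519, chr8:122424776-122432930, minus strand), the partner that anchors gp91phox and receives p47phox, was read at 359 and 351 CPM in young KD, 373 and 342 in young KO, 362 and 428 in sick KD, and 345 and 402 in old KO. Sick KD mouse 2, lowest of all for Cybb, was highest of all for Cyba. Means stood between 355 ± 5.86 (SD, n = 2) in young KD and 395 ± 46.7 in sick KD. Both sick KD values were above both young KD values, a log2 fold change of 0.15 ± 0.12 (SE, 95% interval -0.15 to 0.45, edgeR adjusted p = 0.426). All neighbouring groups in the order of means overlapped. An annotated gene on the opposite strand, Gm20388, spans Cyba and had 0 counts in every library.

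Ncf1 (ENSMUSG00000015950, chr5:134220053-134229625, minus strand) encodes p47phox, the organiser that carries the soluble subunits to the membrane. Its level was 402 and 355 CPM in young KD, 388 and 468 in young KO, 330 and 350 in sick KD, and 342 and 447 in old KO. The 2 sick KD mice were the lowest and, after old KO mouse 1, next lowest of the 8. Sick KD (mean 340 ± 13.8, SD, n = 2) lay below young KD (378 ± 33.2) without overlap, by -0.16 ± 0.12 on the log2 scale (edgeR adjusted p = 0.364). Young KO had the highest mean, 428 ± 56.1, and overlapped with old KO (394 ± 74.5). Ncf1 also had the widest span of the 6. Gtf2ird2 overlaps its end on the opposite strand with 211 to 379 counts a library, against 8179 to 17514 for Ncf1.

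Ncf4 (ENSMUSG00000071715, chr15:78244801-78262580, plus strand) encodes p40phox, which reads lipids on the phagosome. It was at 226 and 204 CPM in young KD, 211 and 220 in young KO, 225 and 243 in sick KD, and 185 and 214 in old KO. Here sick KD was the highest group, with both mice above both young KO and both old KO mice. The log2 fold change of old KO over sick KD was -0.23 ± 0.14 (SE, 95% interval -0.55 to 0.093, edgeR adjusted p = 0.269), and Ncf4 was the 1 member of 6 without overlap in that comparison. The means of young KD and young KO, 215 ± 15.3 and 215 ± 6.32 (SD, n = 2), differed by -0.0020 on the log2 scale, with a 95% interval of -0.21 to 0.20.

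Rac1 (ENSMUSG00000001847, chr5:143503634-143528036, minus strand) encodes the broadly expressed Rac GTPase, which macrophages also use for the oxidase. It was read at 260 and 256 CPM in young KD, 268 and 286 in young KO, 246.1 and 246.5 in sick KD, and 236 and 293 in old KO. The 2 sick KD mice were nearly equal, while the old KO mice held the lowest and the highest value. Young KO was above young KD without overlap, by 0.098 ± 0.076 on the log2 scale (edgeR adjusted p = 1.0), and sick KD was below young KD without overlap, by -0.074 ± 0.10 (edgeR adjusted p = 0.638). Daglb overlaps on the opposite strand and had 2326 to 4802 counts a library, against 6098 to 11808 for Rac1. The strand setting of the counts is not given, and the part of this overlap in the Rac1 level was not tested.

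Rac2 (ENSMUSG00000033220, chr15:78559167-78572783, minus strand), the blood-cell Rac that neutrophils use for the oxidase, was at 462 and 428 CPM in young KD, 423 and 450 in young KO, 369 and 387 in sick KD, and 337 and 427 in old KO. Both sick KD mice were below all 4 young mice, as was old KO mouse 1, and old KO mouse 2 was within the young range. The log2 fold change of sick KD (378 ± 12.3, SD, n = 2) over young KD (445 ± 24.2) was -0.24 ± 0.11 (SE, 95% interval -0.51 to 0.027), with an unadjusted p of 0.0703 and an edgeR adjusted p of 0.166, and this was the smallest p among all 30 tests of the members. Scaled by library size alone, without TMM, the same difference was -0.38 and passed (edgeR adjusted p = 0.0497), in a fit where the median gene shifted by -0.128. Old KO over young KO was -0.20 ± 0.13 (edgeR adjusted p = 0.794), and old KO over sick KD 0.018 ± 0.16 (edgeR adjusted p = 0.947).

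**Figure D2:**
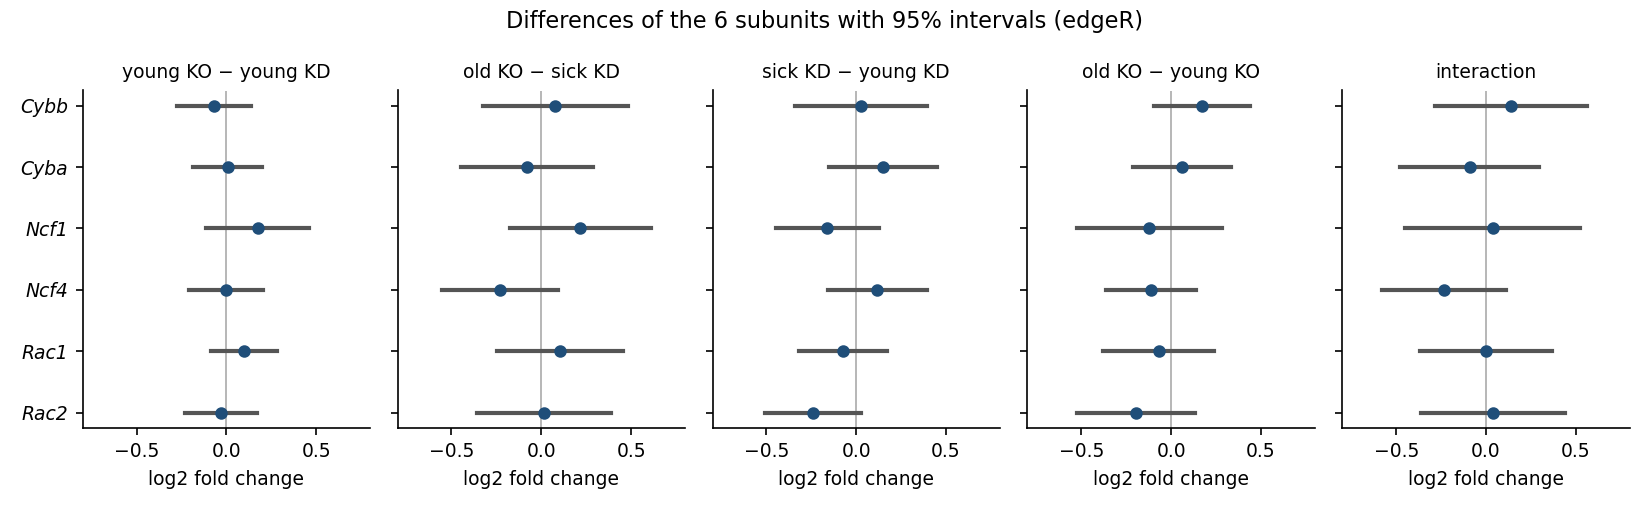
Log2 fold change (x axis) of the 6 subunits in 4 comparisons of groups and in the interaction, with 95% intervals as lines (edgeR). All 30 intervals contain 0 and lie between -0.58 and 0.61.

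Taking the comparisons in turn, none of the 6 subunits passed the edgeR test between young KO and young KD, where 0.0404% of 14839 genes did. Between old KO and sick KD, 0 of 6 passed against 18.1% of 14470 genes, and between sick KD and young KD, 0 of 6 against 20.9% of 14656. Old KO against young KO gave 0 of 6 and 0.929% of 14847. The interaction, which asks whether the KO-to-KD difference was the same in young mice as in old or sick mice, gave 0 of 6 and 7.43% of 15102, with member values from -0.24 ± 0.15 (SE) for Ncf4 to 0.14 ± 0.18 for Cybb. No member had an unadjusted p under 0.05 in these fits, against 2.66% of all genes between young KO and young KD, 35.8% between old KO and sick KD, 37.8% between sick and young KD, 8.86% between old and young KO and 27.7% in the interaction. With DESeq2 none was called either, and 1 had an unadjusted p under 0.05, in sick KD against young KD. With limma voom both counts were 0 in all 5 comparisons. The median log2 fold change over the 6 members was 0.0023, 0.048, -0.023, -0.092 and 0.018 in these 5 comparisons in the same order, and over all genes tested it was -0.0062, -0.0050, 0.013, -0.00063 and 0.00045. The comparisons share groups and are not independent of each other.

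The intervals give the size of difference that remains possible. They reached from -0.28 to 0.46 between young KO and young KD, from -0.55 to 0.61 between old KO and sick KD, from -0.51 to 0.45 between sick and young KD, and from -0.53 to 0.44 between old and young KO. As folds, the widest of these, old KO to sick KD, ran from 0.683 to 1.53. Groups did not overlap for 1 of 6 members between young KO and young KD (27.0% of all genes tested), for 1 between old KO and sick KD (66.0%), for 4 between sick KD and young KD (66.7%) and for 1 between old and young KO (37.7%). Over the 8 libraries the log2 range of a member was 0.31 for Rac1, 0.32 for Cyba, 0.35 for Cybb, 0.40 for Ncf4, 0.45 for Rac2 and 0.50 for Ncf1. Among 2369 protein-coding genes with a mean of at least 100 CPM the median range was 0.48, with quartiles of 0.34 and 0.68.

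Levels of different subunits were compared per kilobase (kb) of exon. On that scale Cyba was highest with a mean of 357 CPM per kb, then Cybb with 289, Rac2 with 132, Ncf4 with 107, Ncf1 with 105 and Rac1 with 58.1. Both membrane subunits were thus above the soluble ones. Among 21474 protein-coding genes, Cyba ranked between 88 and 125 and Cybb between 110 and 172 in the 8 libraries. Rac2 ranked 261 to 354, Ncf1 297 to 474, Ncf4 341 to 439 and Rac1 706 to 844. The enzymes of the same family gave a contrast. Of 10 genes for other NADPH oxidases, their partners and the remaining Rac, 5 (Nox3, Duox1, Duox2, Duoxa1 and Duoxa2) had 0 counts in every library, 3 (Nox1, Nox4 and Noxa1) stayed at or under 0.255 CPM, and 2 could be tested, Noxo1 at 0.817 to 1.27 CPM and Rac3 at 0.202 to 0.609 CPM. Neither passed in any comparison.

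Ratios between subunits within a library do not depend on its scaling. Rac2 to Rac1 per kb was 2.58 and 2.42 in young KD, 2.285 and 2.283 in young KO, 2.17 and 2.27 in sick KD, and 2.07 and 2.11 in old KO. Rac2 outweighed Rac1 in every library, and both young KD mice were above the other 6. Ncf4 to Ncf1 was 1.02 and 1.04 in young KD, 0.985 and 0.853 in young KO, 1.24 and 1.26 in sick KD, and 0.981 and 0.868 in old KO. Sick KD mice thus stood above the other 6 in this ratio, with exact binomial 95% intervals of 1.20 to 1.28 and 1.22 to 1.30 that cover counting error only. Cybb to Cyba was 0.780 and 0.887 in young KD, 0.776 and 0.806 in young KO, 0.936 and 0.621 in sick KD, and 0.944 and 0.775 in old KO, and here the 2 sick KD mice held the lowest and the second highest value. These ratios are given as descriptions, with no test. Their absolute size depends on the exon length used, and their order over libraries does not.

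**Figure D3:**
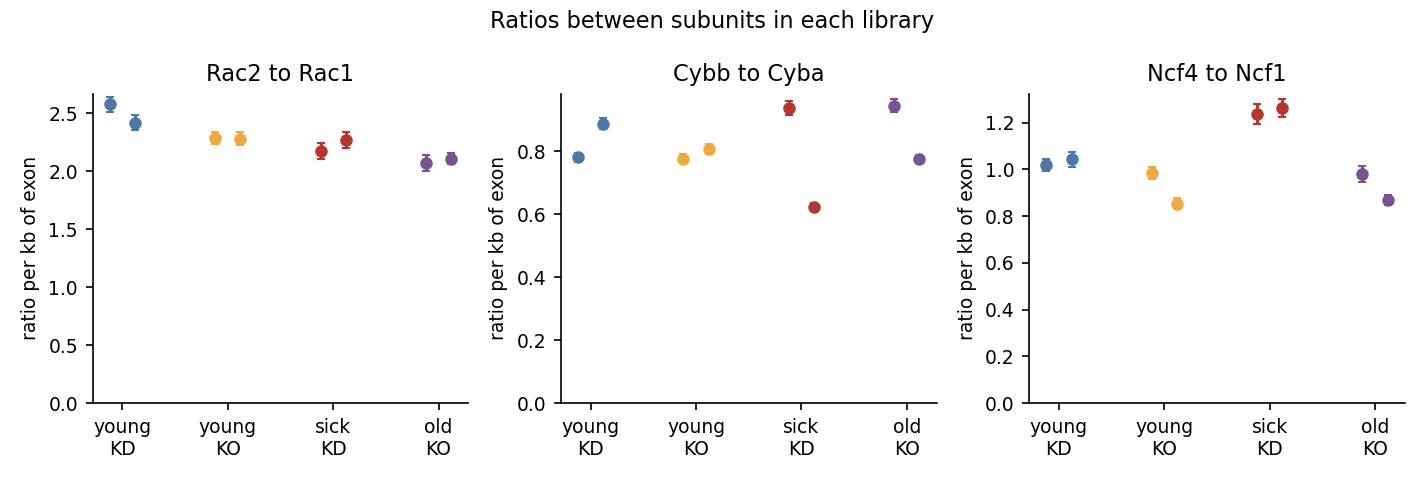
Ratio of CPM per kb of exon (y axis, starting at 0) of Rac2 to Rac1, Cybb to Cyba and Ncf4 to Ncf1 in each of the 8 libraries, with exact binomial 95% counting intervals as bars. The 2 sick KD points of Ncf4 to Ncf1, 1.24 and 1.26, are above the other 6.

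How the members moved with each other over the 8 libraries was described by Pearson's r of log2(CPM + 1), with no p, since all points share libraries, groups and depth. Ncf1 and Rac1 had the highest r, 0.93, followed by Rac1 with Rac2 (0.75), Ncf1 with Rac2 (0.74) and Cyba with Ncf4 (0.59). Cybb had a negative r with each of the other 5, from -0.29 with Rac1 to -0.58 with Ncf4. The membrane partners Cybb and Cyba had an r of -0.34. Among 11484 protein-coding genes with a mean of at least 1 CPM, the 3 most like Cybb were Snap23 (0.97), Tmem65 (0.96) and Cd200r3 (0.94), and those most like Cyba included Rpl21 (0.97) and Crip1 (0.96). Ncf1 was most like Snx18 (0.97), Pi4k2b (0.97) and Tbc1d1 (0.97), and Pi4k2b was also second for Rac1 (0.94), after Dpagt1 (0.96) and before Ap5s1 (0.93). Ncf4 was most like Ptbp1 (0.98), Lxn (0.97) and Txn1 (0.96), and Rac2 most like Ubl5 (0.98), Zfp456 (0.98) and Caskin2 (0.97). With 8 points and so many genes searched, values of this size describe the libraries only. Ncf4 and Rac2 are 0.297 Mb apart on chromosome 15 and had an r of 0.37, and Ncf1 and Rac1 lie 26.5 and 35.8 Mb from Gfi1 on chromosome 5.

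Genes around the oxidase were read from 5 lists, of regulators, receptors, assembly factors, NADPH supply and removal of its products. None of their genes passed the edgeR test between young KO and young KD or between old and young KO. Between young KO and young KD, DESeq2 called 2 receptors and edgeR with every gene of at least 1 count called 3, and with the latter filter 2 receptors and 1 assembly factor were called between old and young KO. Of the 5 regulators, Irf1, an interferon-induced transcription factor, was at 111 and 105 CPM in young KD, 101 and 111 in young KO, 42.3 and 51.2 in sick KD, and 100.3 and 124 in old KO. Both sick KD mice were below the other 6. Irf1 fell in sick KD against young KD by 1.22 ± 0.13 (SE, edgeR adjusted p = 0.00489) and was higher in old KO than in sick KD by 1.27 ± 0.15 (edgeR adjusted p = 0.00532). Irf1 was the 1 regulator of 5 called in either comparison, while 9.93% of all genes were called higher in old KO than in sick KD and 11.4% lower in sick KD than in young KD. Spi1, which encodes PU.1, was at 225 to 295 CPM over the 8 libraries and Irf8 at 420 to 557, and neither passed.

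Of 14 receptors that set off the burst, 6 passed between old KO and sick KD, with 2 at a higher and 4 at a lower level in old KO, against 9.93% and 8.22% of all genes. Fpr2, a receptor for formyl peptides of bacteria, was at 37.6 and 50.8 CPM in young KD, 32.2 and 29.2 in young KO, 146 and 96.3 in sick KD, and 30.0 and 24.4 in old KO. Both sick KD mice exceeded the other 6, and Fpr2 was lower in old KO by -2.15 ± 0.22 on the log2 scale (SE, edgeR adjusted p = 0.00438). Fpr1, the related receptor, and C5ar1, the receptor for complement C5a, were lower by -2.40 ± 0.39 (edgeR adjusted p = 0.0108) and -1.30 ± 0.25 (edgeR adjusted p = 0.0189). The fourth was Fcgr4, named here outside the rule because its list is short. Young mice showed the same direction for Fpr1, with KO below KD by -0.90 ± 0.13 and no call (edgeR adjusted p = 0.478). They also did for Fcgr1, described next, at 63.1 and 76.2 CPM in young KD and 96.5 and 114 in young KO. That difference was 0.59 ± 0.13 and was not called, so these 2 gaps were not limited to old and sick mice. Fcgr1, the high-affinity IgG receptor, was higher in old KO by 0.97 ± 0.15 (edgeR adjusted p = 0.00955), and so was Ptafr, the receptor for platelet-activating factor, by 0.87 ± 0.22 (edgeR adjusted p = 0.0366), a call lost without sick KD mouse 2, without old KO mouse 2 and after removal of a GC and length trend.

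In sick KD against young KD, 5 of the 14 receptors were higher and 1 lower, against 9.45% and 11.4% of all genes. These 6 calls became 3 without either young KD mouse and 7 without sick KD mouse 2, and other settings gave 4 (library size alone) to 9. Fpr1 rose by 1.50 ± 0.30 on the log2 scale (SE, edgeR adjusted p = 0.0205) and Fpr2 by 1.45 ± 0.23 (edgeR adjusted p = 0.0124). Fcgr4, an activating IgG receptor, rose by 0.84 ± 0.21 (edgeR adjusted p = 0.0377), which was lost without sick KD mouse 2, without young KD mouse 2 and with library size alone. Fcgr3 and Csf2rb were the other 2 that rose, named outside the rule, and Ptafr fell by 0.63 ± 0.16 (edgeR adjusted p = 0.0357), a call lost without young KD mouse 1, with all 8 mice in one fit and after removal of the GC and length trend. The integrin subunits Itgam and Itgb2, which together form Mac-1, were at 482 to 682 and 551 to 671 CPM over the 8 libraries and did not pass.

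Among 26 assembly and activation factors, 1 was higher and 1 lower in old KO than in sick KD, against 9.93% and 8.22% of all genes. That count of 2 was 9 with DESeq2, 9 with all 8 mice in one fit, 8 with the GC and length trend removed, 6 with library size alone and 5 with the looser count filter. Vav2, an exchange factor that loads Rac with GTP, was at 52.9 and 45.0 CPM in young KD, 47.3 and 51.9 in young KO, 17.9 and 27.8 in sick KD, and 40.8 and 43.7 in old KO. Pik3cg, the catalytic subunit of the PI3 kinase downstream of G protein-coupled receptors, was at 198 and 229 in young KD, 211 and 201 in young KO, 378 and 330 in sick KD, and 202 and 209 in old KO. Sick KD was thus the lowest group for Vav2 and the highest for Pik3cg, without overlap. Old KO over sick KD was 0.89 ± 0.21 for Vav2 (SE, edgeR adjusted p = 0.0293) and -0.78 ± 0.14 for Pik3cg (edgeR adjusted p = 0.0129), the latter lost without old KO mouse 1. In sick KD against young KD 5 factors passed, 2 higher and 3 lower, against 9.45% and 11.4% of all genes, and other settings gave 4 to 11. Leaving out 1 mouse gave 2 (without young KD mouse 1) to 8 (without sick KD mouse 2). Pik3cg rose by 0.72 ± 0.13 (edgeR adjusted p = 0.0160) and Coro1a, an actin-binding protein of leukocytes that binds p40phox, by 0.45 ± 0.13 (edgeR adjusted p = 0.0497). Vav2 fell by 1.11 ± 0.22 (edgeR adjusted p = 0.0196), and 2 kinases of burst signalling also fell, Prkcb by 0.75 ± 0.14 (edgeR adjusted p = 0.0184) and Syk by 0.66 ± 0.11 (edgeR adjusted p = 0.0143). Without young KD mouse 1 the calls of Pik3cg, Coro1a, Prkcb and Syk were lost, and that of Coro1a also without young KD mouse 2, with size factors of DESeq2, with library size alone and with a stricter count filter. Cybc1, the chaperone of the membrane subunits, was at 107 to 140 CPM and the proton channel gene Hvcn1 at 50.1 to 88.6 CPM, and neither passed.

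NADPH supply and the removal of superoxide and peroxide had single genes that moved. Rpia, a pentose phosphate isomerase, was at 91.3 and 86.8 CPM in young KD, 92.9 and 91.2 in young KO, 47.9 and 50.9 in sick KD, and 89.6 and 88.1 in old KO. Glrx, a glutaredoxin, was at 47.5 and 50.1 in young KD, 49.4 and 46.2 in young KO, 77.9 and 75.3 in sick KD, and 41.947 and 41.954 in old KO. In both genes the sick KD mice stood apart from 6 similar values, below them for Rpia and above them for Glrx. Rpia was the only 1 of 7 tested supply genes called between old KO and sick KD (0.85 ± 0.11, SE, edgeR adjusted p = 0.00573), where 18.1% of all genes were. In sick KD against young KD it fell by 0.86 ± 0.10 (edgeR adjusted p = 0.00626), and Pgd, which makes NADPH in the same pathway, rose by 0.49 ± 0.11 (edgeR adjusted p = 0.0271), a call lost without either young KD mouse and with library size alone. G6pdx, the first enzyme of that pathway, was at 310 to 398 CPM and did not pass.

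Of 22 removal genes, old KO had 3 at a higher and 1 at a lower level than sick KD, against 9.93% and 8.22% of all genes, and 1 in all was called without sick KD mouse 1 or without old KO mouse 1. Glrx was lower by -0.87 ± 0.11 (SE, edgeR adjusted p = 0.00546). Nqo1, a quinone reductase at 2.20 to 5.28 CPM, was higher by 1.06 ± 0.25 (edgeR adjusted p = 0.0307), Prdx2, a peroxiredoxin abundant in red cells, by 0.71 ± 0.16 (edgeR adjusted p = 0.0268) and Gclc, which catalyses the limiting step of glutathione synthesis, by 0.57 ± 0.13 (edgeR adjusted p = 0.0292). The calls of Nqo1, Prdx2 and Gclc were lost without sick KD mouse 1 and without old KO mouse 1, and that of Nqo1 also without sick KD mouse 2. In sick KD against young KD, Glrx rose by 0.64 ± 0.10 (edgeR adjusted p = 0.0122), which was lost without young KD mouse 1, and Gclc fell by 0.81 ± 0.13 (edgeR adjusted p = 0.0134). Sod2, the mitochondrial superoxide dismutase, was at 69.6 to 83.0 CPM and did not pass.

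**Figure D4:**
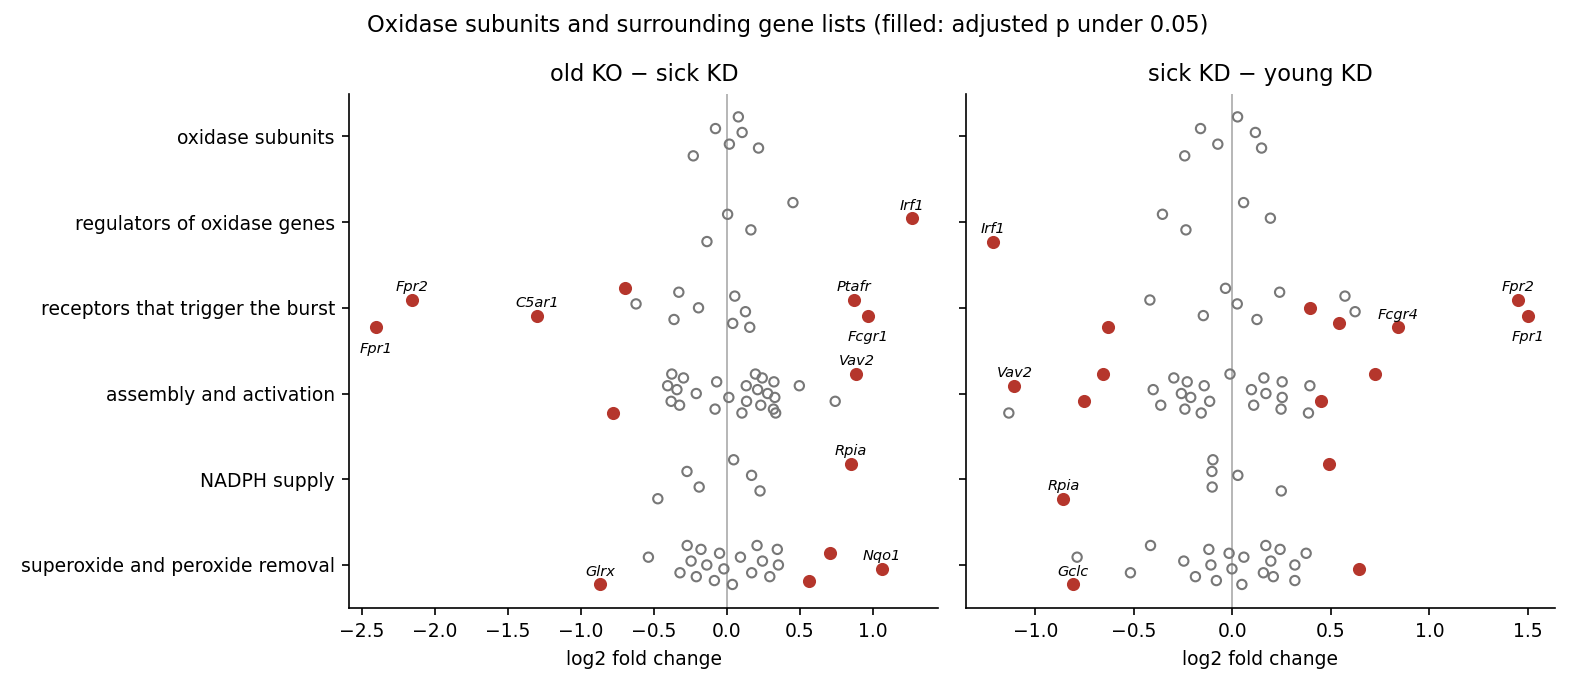
Log2 fold change (x axis) of the 6 oxidase subunits and of the genes of 5 surrounding lists (rows) between old KO and sick KD and between sick KD and young KD, with filled points for edgeR adjusted p under 0.05 and open points otherwise; names are given for called genes beyond 0.8. The subunits cluster between -0.24 and 0.22 with no filled point.

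Marker genes of the cell types of marrow give the setting in which the subunits were measured. Summed CPM of 7 monocyte markers was 9269 to 9882 in sick KD, 6159 to 7993 in young KD, 7045 to 8236 in young KO and 8367 to 8395 in old KO. Summed CPM of 5 granulocyte progenitor markers was 6281 to 7036 in sick KD and 4243 to 5493 in the other groups, and that of 8 mature neutrophil markers 879 to 1305 against 568 to 689. These myeloid sums were thus highest in sick KD, in part by single genes. The neutrophil sum was higher through Mmp8, a neutrophil collagenase at 889 and 598 CPM there and 361 to 453 CPM elsewhere, and Cd177. Cd177, named outside the rule, was at 360 and 258 CPM in sick KD and 143 to 234 CPM elsewhere. The median log2 fold change of the 8 neutrophil markers, sick KD over young KD, was -0.099, so the sum does not describe the list as a whole. Of these lists edgeR called 3 monocyte markers higher and 1 lower in sick KD than in young KD, 4 progenitor markers higher and 0 lower, and 2 neutrophil markers higher and 1 lower, against 9.45% and 11.4% of all genes. Ly6g, a defining marker of mature neutrophils, was at or under 0.545 CPM in every library.

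The B cell, erythroid and stroma lists were lower in sick KD. B cell markers summed to 33.9 to 71.7 CPM in sick KD, 102 to 147 in old KO and 426 to 602 in young mice. Erythroid markers summed to 226 to 331 CPM in sick KD and 610 to 1736 elsewhere, and stroma markers to 20.97 to 23.05 against 97.2 to 199. All 7 B cell, all 7 erythroid and all 5 stroma markers were called lower in sick KD than in young KD (edgeR), against 11.4% of all genes. All 7 B cell markers were also called lower in old KO than in young KO, where 0.929% of all genes were called in either direction. Of 7 macrophage markers 5 were called lower in sick KD than in young KD (11.4% of all genes) and 5 higher in old KO than in sick KD (9.93%). The macrophage sum was 199.8 to 235 CPM in sick KD, 219.6 to 280.5 CPM in young KD and 312 to 389 CPM in old KO. Adgre1, the macrophage marker with the most reads, did not pass between sick and young KD (0.24 ± 0.16, SE, edgeR adjusted p = 0.322). Sums of T and NK cell markers were 70.7 to 75.1 CPM in sick KD and 69.4 to 86.7 CPM elsewhere, mostly from Nkg7 (40.4 to 59.7 CPM). Under that sum, edgeR called 3 of the 7 genes lower and 0 higher in sick KD than in young KD (11.4% and 9.45% of all genes). It called 3 higher and 0 lower in old KO than in sick KD (9.93% and 8.22% of all genes). Stem and progenitor sums were 389.7 to 445 CPM in sick KD, 341 to 417 CPM in young mice and 410.3 to 469 CPM in old KO. Dendritic cell sums, 53.1 to 57.5 CPM in sick KD, and megakaryocyte sums, 72.3 to 136 CPM, overlapped with young KD. The dendritic cell sum in sick KD was mostly Flt3 (49.1 and 45.0 CPM), which was higher there than in young KD by 0.65 ± 0.17 (SE, edgeR adjusted p = 0.0399). With Flt3, 1 of 5 dendritic cell markers was called higher in sick KD than in young KD, and 2 were called lower. Between old KO and sick KD, 2 of 4 tested were called higher and 0 lower. Eosinophil and basophil sums were 383 to 451 CPM in sick KD and 517 to 1301 CPM elsewhere. Prg2, at 196 to 773 CPM the gene with the most reads in that list, did not pass between sick and young KD (-0.26 ± 0.12, SE, edgeR adjusted p = 0.185). Of the 7 genes, 1 was called lower and 0 higher in sick KD than in young KD (11.4% and 9.45% of all genes). In old KO, 5 were called higher and 0 lower than in sick KD (9.93% and 8.22%). No marker list was at 0 as a whole or had a gene at 0 in every library. Each subunit stayed within 1.42-fold over the 8 libraries, and the part of the cell mixture in the subunit levels was not tested.

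**Figure D5:**
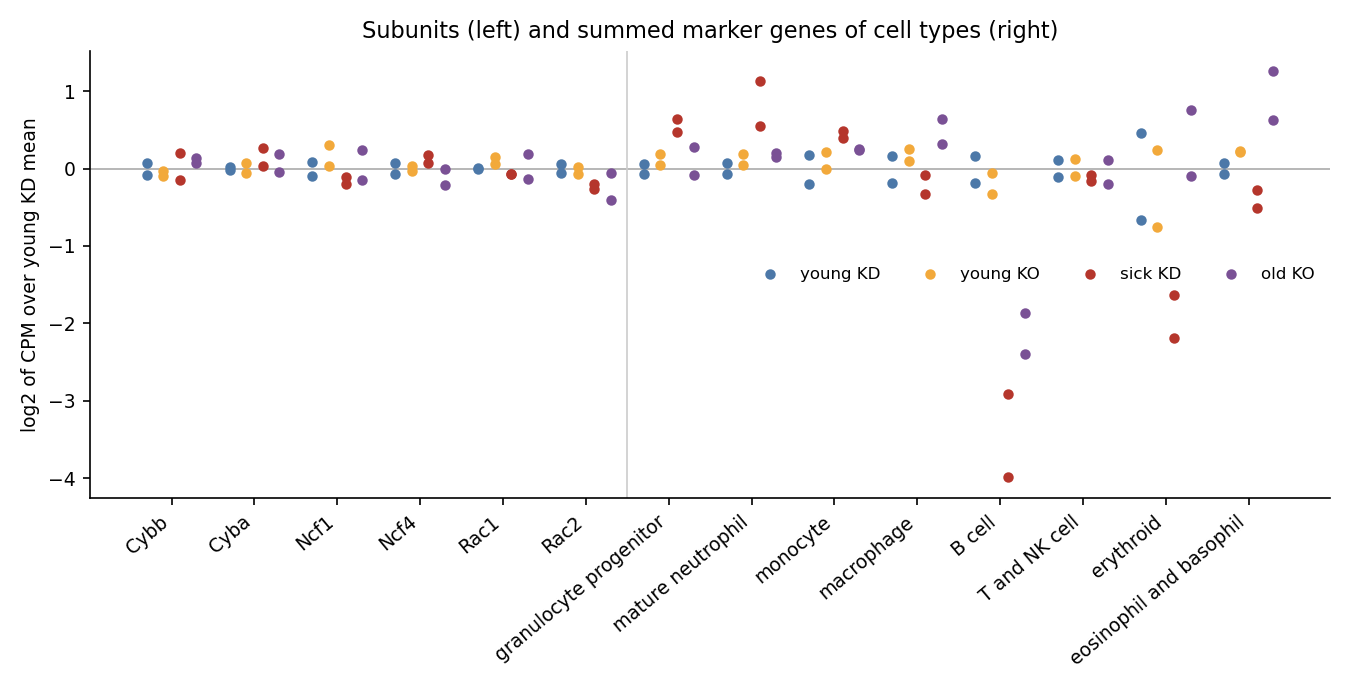
Log2 of CPM relative to the young KD mean (y axis) for each mouse, for the 6 oxidase subunits on the left of the grey line and for summed marker genes of 8 cell types on the right. Subunit points stay close to 0, whereas B cell sums of sick KD and old KO mice and erythroid sums of sick KD mice lie far below it.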

How the data were processed

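Whole BM RNA of 8 mice was sequenced as stranded poly(A) libraries. Per the paper and the labels, the authors aligned reads to mm10 (GRCm38) with TopHat2 2.0.10, used SAMtools, ran HTSeq over Ensembl genes and tested with DESeq. The Ensembl release and the strand setting are not given in the sources used here. The deposited values are raw read counts of 41214 genes and 5 HTSeq tallies per mouse, and the tallies were left out of library sizes. Symbols and exon lengths came from GENCODE M21, which holds 40340 of these identifiers.

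Groups followed the sample labels, with mice numbered in accession order within a group. Each comparison was fitted on its own 4 mice, and the interaction on all 8, with edgeR 4.0.16 in R 4.3.3 (TMM, filterByExpr, quasi-likelihood test). An adjusted p (Benjamini-Hochberg over all genes tested) under 0.05 was a call, and limma 3.58.1 (voom) and DESeq2 1.42.0 were alternatives. The steps were tested on simulated data with 200 genes changed 4-fold, of which 95.0% to 99.5% were recovered. Changes as small as those between the member levels were not simulated. Libraries of 26642067 to 42679114 counts gave each member at least 5247 counts, so the spread between mice limits precision more than counting does, and p-values measure the spread between these mice only.

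The members and gene lists were chosen with earlier results of these data known. Named besides the members were Gfi1, up to 3 called genes per list, direction and comparison, the marker with the most CPM, and the 3 protein-coding genes most like each member. A few genes of the lists or of the naming rule, and 1 sequence, are not reported here. The other 166 list genes matched an identifier. Alternatives were other scalings, count filters, a trend in GC content and exon length removed, all 8 mice in one fit, each mouse left out, and other gene lengths for ratios.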

Additional observations from a re-analysis of the deposited data

Results flagged for a closer look

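The KO-to-KD difference changed from young mice to old and sick mice, by the edgeR interaction test, for 5 genes of the lists around the oxidase and for 2 of the markers with the most CPM in their list, and for none of the 6 subunits, while 7.43% of all genes were called. Only KD mice were sick, so genotype and disease cannot be told apart in this test. On the log2 scale the change was -1.63 ± 0.31 (SE) for Fpr2 (edgeR adjusted p = 0.0263), the formyl peptide receptor. It was -0.84 ± 0.12 for Glrx (edgeR adjusted p = 0.0141), 1.30 ± 0.19 for Irf1 (edgeR adjusted p = 0.0141) and 0.80 ± 0.11 for Rpia (edgeR adjusted p = 0.0141). For Pik3cg it was -0.73 ± 0.15 (edgeR adjusted p = 0.0337). The neutrophil collagenase gene Mmp8 gave -1.10 ± 0.24 (edgeR adjusted p = 0.0368) and the stromal chemokine gene Cxcl12 gave 2.67 ± 0.44 (edgeR adjusted p = 0.0192). Mmp8 does not stand for its list, where 1 of 8 markers was called higher and 1 lower. The higher was Retnlg, named outside the rule, at 2.36 ± 0.34 (edgeR adjusted p = 0.0144). Leave-one-out values of Mmp8 and Cxcl12 are not given here. Leaving out 1 mouse ended the call of Fpr2 and Pik3cg for 6 of 8 mice each, that of Rpia for 3, and those of Irf1 and Glrx for 2 each, young KO mouse 1 and young KD mouse 1. All-gene calls in the interaction ranged from 106 to 1614 when 1 mouse was left out, against 1122 with all mice.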

How the results depend on the processing

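No member was called under any alternative except Rac2 in sick KD against young KD with library size alone, where 1 of 6 passed. That scaling moved the median gene by 0.114 (old KO over sick KD), -0.128 (sick KD over young KD) and 0.132 (interaction). It split calls into 2125 higher and 868 lower (1437 and 1189 with TMM), 871 and 2635 (1385 and 1678), and 1241 and 351 (653 and 469). No paired analysis was possible because the groups share no mouse numbers. Log2 fold changes of members that turned sign, with none called before or after, were as follows. With library size alone Cyba was at 0.040 (old KO over sick KD) and 0.038 (interaction), Cybb at -0.115 and Ncf4 at -0.023 (sick KD over young KD), and Rac1 at 0.129 (interaction). With the GC and length trend removed, Rac1 was at -0.027 and Rac2 at -0.139 (old KO over sick KD), Rac1 at 0.043 (sick KD over young KD), Cyba at -0.059 (old KO over young KO), and Ncf1 at -0.121 and Rac2 at -0.099 (interaction). Ncf4 (young KO over young KD) was at 0.00090 without the 50 genes with the most counts and at 0.0028 with all 8 mice in one fit. Rac1 (interaction) was at 0.015 with size factors of DESeq2, 0.016 in DESeq2, and 0.011 and 0.014 with the looser and the stricter count filter. The cause of these turns was not tested.

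Leaving out each mouse in turn, where the lone mouse of a group is assumed to vary like the others, no member was called, and signs turned for these. Young KO over young KD ranged from -0.14 to 0.011 for Cybb, -0.055 to 0.065 for Cyba, -0.071 to 0.076 for Ncf4 and -0.083 to 0.029 for Rac2. Old KO over sick KD ranged from -0.088 to 0.26 for Cybb, -0.20 to 0.046 for Cyba, -0.065 to 0.26 for Rac1 and -0.17 to 0.19 for Rac2. Sick KD over young KD ranged from -0.16 to 0.19 for Cybb. Old KO over young KO ranged from -0.053 to 0.17 for Cyba, -0.33 to 0.059 for Ncf1 and -0.23 to 0.077 for Rac1. The interaction ranged from -0.037 to 0.33 for Cybb, -0.21 to 0.022 for Cyba, -0.18 to 0.22 for Ncf1, -0.17 to 0.15 for Rac1 and -0.14 to 0.20 for Rac2.

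Ratios of counts with no length correction shifted every library alike, with group means of log2 Rac2 to Rac1 at 0.53 to 0.78, Cybb to Cyba at 2.09 to 2.26 and Ncf4 to Ncf1 at -0.98 to -0.54. Exon length of the principal transcript was added after seeing the data and also shifts all libraries alike. Group mean CPM moved by over 1 SD only where that SD was small, in 6 cases with library size alone and for Rac1 in sick KD (245 with size factors of DESeq2).

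Counts over all genes moved by over 1.5 times under several settings. Young KO against young KD gave 6 calls, 26 with DESeq2, 119 with any gene counted, 3 with all 8 mice in one fit and 2 without young KO mouse 1. Old KO against sick KD gave 2626, 4325 with any gene counted, 4200 with all 8 mice in one fit, 1221 without sick KD mouse 1 and 1725 without old KO mouse 1. Sick KD against young KD gave 3063, and 1316 without young KD mouse 1. Old KO against young KO gave 138, 383 with DESeq2, 796 with any gene counted, and 17 to 307 without 1 mouse. The interaction gave 1122, 1951 with DESeq2, 2919 with any gene counted and 2041 with the trend removed (888 higher and 1153 lower). Trend removal also turned the majority direction of calls in old KO against sick KD (1747 higher and 2008 lower) and in sick KD against young KD (2442 and 2123). With 2 mice a group, differences within the intervals of the members are not excluded.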
